A study of Mus musculus with 6 samples.

Results

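The genes described here encode the conjugating enzymes of phase II detoxification and the aldehyde dehydrogenases. They were taken by a rule on symbols, which covered every UDP-glucuronosyltransferase of the Ugt1 and Ugt2 families, every glutathione S-transferase of the Gsta, Gstk, Gstm, Gsto, Gstp, Gstt and Gstz families, and every Mgst, Sult and Aldh gene. It found 85 of 21959 genes: 18 Ugt, 22 Gst, 3 Mgst, 21 Sult and 21 Aldh genes. RNA-seq had been performed on primary colonic cell lines grown from mouse adenomas, to ask how gene expression changes when Group I Paks, kinases that act downstream of Rac and Cdc42, are inhibited. PID+ cells came from mice with CDX2P-NLS-Cre, 1 deleted Apc allele and a Rosa26 insertion, in which Cre removes a stop cassette and allows expression of the Pak inhibitory domain fused to a GST tag, together with eGFP, from the Rosa26 locus. PID- cells came from control littermates without the inhibitor, so that Cre under the CDX2 promoter and the targeted Apc allele were common to both groups. The labels name 3 mice per group, mice 4, 7 and 26 for PID+ and mice 1, 2 and 3 for PID-.

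PID- samples are called normal in the labels, although the study describes these cells as tumor cells, and its methods speak of replicated sequencing runs where the labels name mice. Their numbers for PID- mice also differ from those the study gives its PID- lines. The deposited table holds a single FPKM (fragments per kilobase of transcript, scaled to library size) per gene and condition, made from the pooled reads of the 3 samples, with the bounds of a confidence interval. Following the labels, PID+ was read as the treated condition and PID- as the untreated one. This could not be checked on the transgene, which the table does not list. Cdh1 (88.03 FPKM in PID- and 192 FPKM in PID+) and Esrp1 (14.997 and 36.6 FPKM) differed in the direction the study describes for their proteins. Because a condition had only 1 pooled value, no difference below had a replicate check, and no p-value is given. The intervals, printed in brackets after a value, reflect the error model of the program that made them and not the spread between mice.

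Phase II enzymes make foreign compounds, drugs, bile pigments and hormones more water-soluble by attaching glucuronic acid, glutathione or sulfate to them, and transporters then export the conjugates. The lining of the gut is a major site of this chemistry outside the liver, since it meets dietary and bacterial compounds first. Aldehyde dehydrogenases oxidize reactive aldehydes, including products of lipid peroxidation and alcohol, and some of them make retinoic acid from retinal.

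Many of these genes had little RNA in the cells, at a share not far from that of all genes. Of the 85 genes, 45 were below 1 FPKM in both conditions (52.9%, against 46.3% of all genes). Of these, 17 were listed at 0 in both conditions (20.0% of the 85, against 19.3% of all genes), and 28 were above 0. The other 40 reached 1 FPKM in at least 1 condition. FPKM was lower in PID+ than in PID- for 45 genes and higher for 23. This is 52.9% lower and 27.1% higher, whereas 39.7% of all genes were lower and 41.0% higher. On the scale log2((FPKM in PID+ + 1)/(FPKM in PID- + 1)), which understates the change of genes with low values, the median of the 85 genes was -0.01 and that of all genes was 0. Genes below 1 FPKM hold this median near 0, and over the 39 genes with a mean of at least 1 FPKM it was -0.58 (-0.01 over all 11480 such genes). Together they summed to 1109 FPKM in PID+ and 1451 FPKM in PID-, or 0.189% and 0.266% of all FPKM.

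The study also used 3-fold for its heatmap, with no pseudocount stated. On plain FPKM Gstm1 (3.14-fold lower) and Gsta3 (3.07-fold higher), among others, would pass. Calls here were made at 3-fold on the log2 scale above, with 1 added to FPKM. By this rule 6 of the 85 genes (7.06%) were lower in PID+, against 1.72% of all genes (377), namely Ugt2b34, Ugt1a6a, Aldh3a1, Aldh3b1, Ugt1a7c and Mgst1. Of the 50-base stretches of Ugt1a6a, 94.2% also occur in Ugt1a7c, so the calls of these 2 genes are not separate measurements. Gstk1 and Gstt3 were higher, 2 of the 85 (2.35%) against 1.04% of all genes (229). The genes nearest the threshold were Mgst1 (-1.75) and Gstt3 (2.07) on the called side, and Gstm1 (-1.50) and Ugt1a6b (-1.25) on the other. By a stricter rule, that the deposited intervals of the conditions do not overlap, 3 genes were lower, Ugt2b34, Aldh3a1 and Aldh3b1 (3.53%, against 0.542% of all genes), and 0 were higher (0.187% of all genes). In pooled RNA of this kind, fewer cells of a type and less RNA per cell cannot be told apart.

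**Figure D1:**
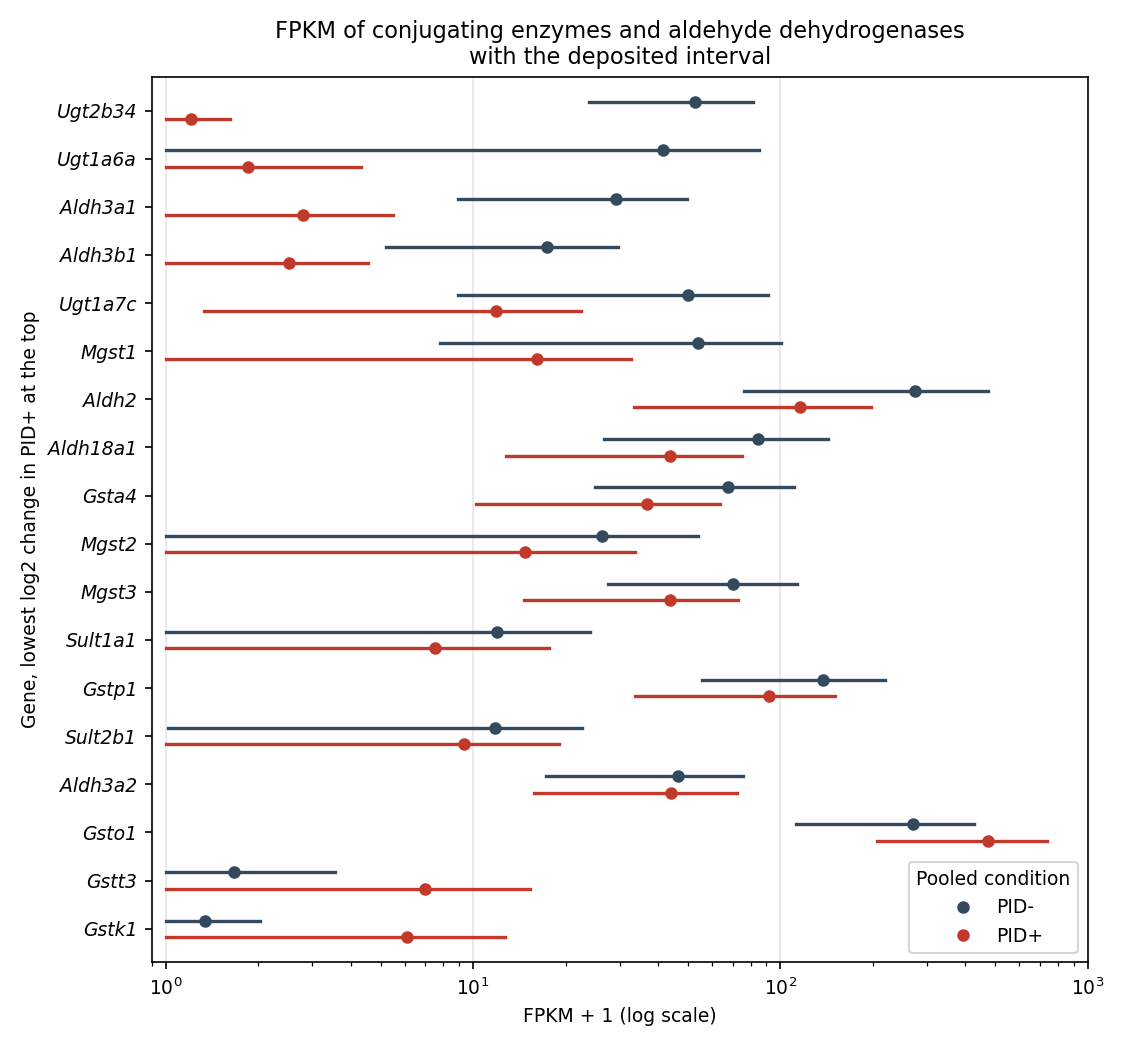
FPKM plus 1 on a log axis for the 8 genes past 3-fold and the most abundant genes of each enzyme class. Points are the pooled values, lines the deposited intervals, dark for PID- and red for PID+. The lines of Ugt2b34, Aldh3a1 and Aldh3b1 do not overlap, and those of the other genes shown do.

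Glucuronosyltransferases were the class with the largest ratio between the conditions. Their 18 genes summed to 144.7 FPKM in PID- and 12.8 FPKM in PID+, which is 11.3-fold lower, and the sum was also lower in PID+ after each rescaling tried. Ugt2b34, a member of the Ugt2b family of enzymes that conjugate steroids, bile acids and drugs, had 51.6 FPKM in PID- [22.9 to 80.3] and 0.204 FPKM in PID+ [0 to 0.621]. Its FPKM was 253-fold lower and its log2 change of -5.45 ranked 5 from the bottom among the 21959 genes. It carried nearly the whole family: the 7 Ugt2b genes summed to 52.2 FPKM in PID- and 0.233 FPKM in PID+, and the next highest value in the family was 0.338 FPKM, that of Ugt2b35 in PID-. The gene lies at chr5:86889767-86906937 on the minus strand (GRCm38), at an end of a cluster in which Ugt2b1, Ugt2b35, Ugt2b36, Ugt2b37, Ugt2b38 and Ugt2b5 were all under 1 FPKM in both conditions. Of its 50-base windows, 98.6% occur in no other protein-coding transcript, so few of its reads could belong to a relative. Ugt2a2 and Ugt2a3, of a family known from olfactory epithelium, liver and gut, were listed at 0 in both conditions. Only 6.40% of the windows of Ugt2a2 are its own and 68.6% also occur in Ugt2a1, so its separate level is uncertain.

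The Ugt1a genes, which include the enzyme that conjugates bilirubin (Ugt1a1) and those that conjugate phenols (Ugt1a6a, Ugt1a6b), share their 3' parts. All 9 genes lie at chr1:88055388-88220002 on the plus strand. Each has upstream exons of its own and then uses the common exons chr1:88215044-88215175, chr1:88215795-88215882 and chr1:88216138-88216357. Ugt1a6a had 40.6 FPKM in PID- [0 to 84.2] and 0.853 FPKM in PID+ [0 to 3.32], a log2 change of -4.49 (rank 12 from the bottom). Ugt1a7c, another enzyme of phenol conjugation, had 49.1 FPKM in PID- [7.95 to 90.1] and 10.9 FPKM in PID+ [0.330 to 21.5], a log2 change of -2.07. For both genes the intervals overlapped between the conditions.

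How the reads were divided between these genes is uncertain. Only 4.02% of the 50-base windows of Ugt1a6a are found in no other gene, and 94.2% also occur in Ugt1a7c, because an annotated Ugt1a7c transcript includes the exon chr1:88138473-88139331 that Ugt1a6a also uses. For Ugt1a7c 45.8% of the windows are its own. Added over the 9 genes, the Ugt1a level was 92.5 FPKM in PID- and 12.6 FPKM in PID+, 7.33-fold lower. Ugt1a6b had 1.89 FPKM in PID- and 0.213 FPKM in PID+, and the remaining 6 genes stayed under 1 FPKM, with Ugt1a1 the highest of them at 0.696 FPKM in PID- and 0.367 FPKM in PID+.

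**Figure D2:**
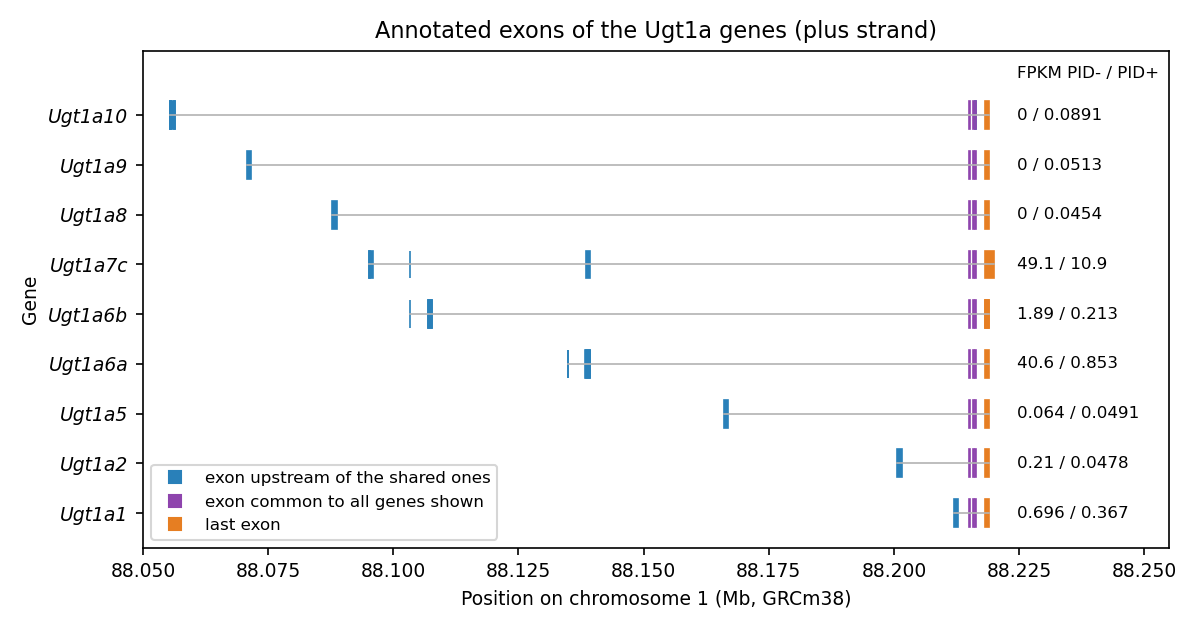
Annotated exons of the 9 Ugt1a genes on chromosome 1 (position in Mb, GRCm38), with the FPKM of each gene in PID- and PID+ on the right. Purple exons are common to all 9 genes, blue exons lie upstream of them and orange marks the last exon. Ugt1a7c and Ugt1a6a hold most of the FPKM.

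Among the soluble glutathione S-transferases, levels ran from 0 to 472 FPKM and the families differed in direction. The 22 genes summed to 581 FPKM in PID- and 678 FPKM in PID+, but this rested on Gsto1 and on the scaling. The log2 ratio of the sums was 0.22, -0.60 without Gsto1 and -0.40 when both conditions were set to equal Gapdh. Gsto1, an omega class enzyme that reduces dehydroascorbate and methylated arsenic, had 268 FPKM in PID- [112 to 425] and 472 FPKM in PID+ [206 to 739], a log2 change of 0.81 with overlapping intervals. It was the most abundant of the 85 genes in PID+, whereas its neighbor Gsto2 stayed under 1 FPKM.

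The pi class was lower in PID+. Gstp1, which acts on many electrophiles and is widely used as a tumor marker, had 137 FPKM in PID- [54.5 to 218] and 91.2 FPKM in PID+ [32.5 to 149.8]. Gstp2 had 43.1 FPKM in PID- and 20.7 FPKM in PID+, and the intervals of both genes overlapped between conditions. At equal Gapdh Gstp2 passed 3-fold (-1.61). The pair is nearly identical in parts, with 49.0% of the windows of Gstp1 and 55.7% of those of Gstp2 found in no other gene, so their separate levels are uncertain. Gstp3 was at most 0.0584 FPKM.

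In the alpha class, Gsta4, which conjugates the lipid peroxidation product 4-hydroxynonenal, had 66.7 FPKM in PID- [23.9 to 109] and 35.8 FPKM in PID+ [9.20 to 62.5]. Gsta1 had 12.2 FPKM in PID- and 5.69 FPKM in PID+, with 10.3% of its windows its own, and Gsta2 was under 1 FPKM. Gsta3 went the other way, with 1.86 FPKM in PID- and 5.72 FPKM in PID+ and lower bounds of 0 in both. The alpha class as a whole summed to 81.1 FPKM in PID- and 47.4 FPKM in PID+.

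The mu class genes lie next to each other on chromosome 3 and did not share a direction. Gstm1 had 18.3 FPKM in PID- [3.32 to 33.3] and 5.84 FPKM in PID+ [0 to 12.5], a log2 change of -1.50 that missed the threshold. It passed 3-fold with a pseudocount of 0.1 (-1.63), equal total FPKM (-1.59), equal Gapdh (-2.01) and chromosome medians subtracted (-1.75), and not with equal upper quartiles (-1.49). Gstm4 had 1.90 FPKM in PID- and 5.26 FPKM in PID+, and its log2 change of 1.11 became 0.60 at equal Gapdh. Gstm2 (8.07 and 7.70 FPKM in PID- and PID+) and Gstm5 (5.60 and 5.59 FPKM) were close to equal. At equal Gapdh they were at -0.60 and -0.51, where the median of all genes with a mean of at least 5 FPKM was -0.58. Gstm3, Gstm6 and Gstm7 did not reach 1 FPKM.

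Both genes called higher in PID+ were glutathione S-transferases of low abundance. Gstk1, a kappa class enzyme of mitochondria and peroxisomes, had 0.342 FPKM in PID- [0 to 1.03] and 5.10 FPKM in PID+ [0 to 11.7]. Its log2 change was 2.18, rank 65 from the top among all genes, and was 1.68 at equal Gapdh. Gstt3, of the theta class, had 0.672 FPKM in PID- [0 to 2.56] and 6.00 FPKM in PID+ [0 to 14.3], a log2 change of 2.07 that dropped below 3-fold at equal Gapdh (1.55). All of these lower bounds are 0 and the intervals overlap, and 79.6% of the windows of Gstt3 are its own. Among its neighbors on chromosome 10, Gstt1 was lower in PID+ (1.11 FPKM in PID- and 0.223 FPKM in PID+), Gstt2 was higher but under 1 FPKM (0.0358 and 0.296 FPKM), and Gstt4 was listed at 0. Gstz1, the zeta class enzyme of tyrosine breakdown, had 13.8 FPKM in PID- and 8.40 FPKM in PID+.

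All 3 microsomal glutathione transferases were lower in PID+, also after each rescaling. Mgst1, a membrane enzyme that conjugates electrophiles and reduces lipid peroxides, had 53.0 FPKM in PID- [6.83 to 99.2] and 15.1 FPKM in PID+ [0 to 31.6], a log2 change of -1.75. Mgst3 had 69.2 FPKM in PID- [26.4 to 112] and 42.6 FPKM in PID+ [13.7 to 71.6]. Mgst2, which can also make leukotriene C4, had 25.3 FPKM in PID- [0 to 53.0] and 13.7 FPKM in PID+ [0 to 32.7]. Their sum was 147 FPKM in PID- and 71.5 FPKM in PID+, and in each of the 3 genes the intervals overlapped.

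Sulfotransferases were hardly present. Of 21 genes, 13 were listed at 0 in both conditions, among them all 8 Sult2a genes, which act on bile acids and steroids, as well as Sult1b1, Sult1d1 and Sult1e1. Sult1a1, the phenol sulfotransferase, had 11.0 FPKM in PID- [0 to 23.0] and 6.53 FPKM in PID+ [0 to 16.7]. Sult2b1, which sulfates cholesterol, had 10.8 FPKM in PID- [0.0191 to 21.6] and 8.32 FPKM in PID+ [0 to 18.1]. No other sulfotransferase exceeded 0.346 FPKM.

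Aldehyde dehydrogenases summed to 556 FPKM in PID- and 331 FPKM in PID+, and the sum was lower in PID+ after each rescaling. In the Aldh3 family, Aldh3a1, which clears aldehydes of lipid peroxidation and is best known from cornea and stomach, had 28.3 FPKM in PID- [7.91 to 48.7] and 1.797 FPKM in PID+ [0 to 4.50]. This was 15.7-fold lower, with a log2 change of -3.39 (rank 54 from the bottom) and intervals that did not overlap. Aldh3a2, its neighbor on chromosome 11 and the microsomal enzyme for fatty aldehydes, had 45.3 FPKM in PID- [16.3 to 74.4] and 42.9 FPKM in PID+ [14.8 to 71.1]. Side by side, then, Aldh3a1 (chr11:61207537-61218421, plus strand) was called lower and Aldh3a2 (chr11:61223417-61267464, minus strand) was not.

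Aldh3b1, another enzyme for medium- and long-chain aldehydes, had 16.4 FPKM in PID- [4.21 to 28.6] and 1.51 FPKM in PID+ [0 to 3.54]. It was 10.8-fold lower, with a log2 change of -2.79 (rank 98 from the bottom), and its intervals were apart as well. It lies at chr19:3913491-3929808 on the minus strand near Aldh3b3 and Aldh3b2, which stayed at or below 0.135 FPKM, and 90.5% of its windows are its own.

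**Figure D3:**
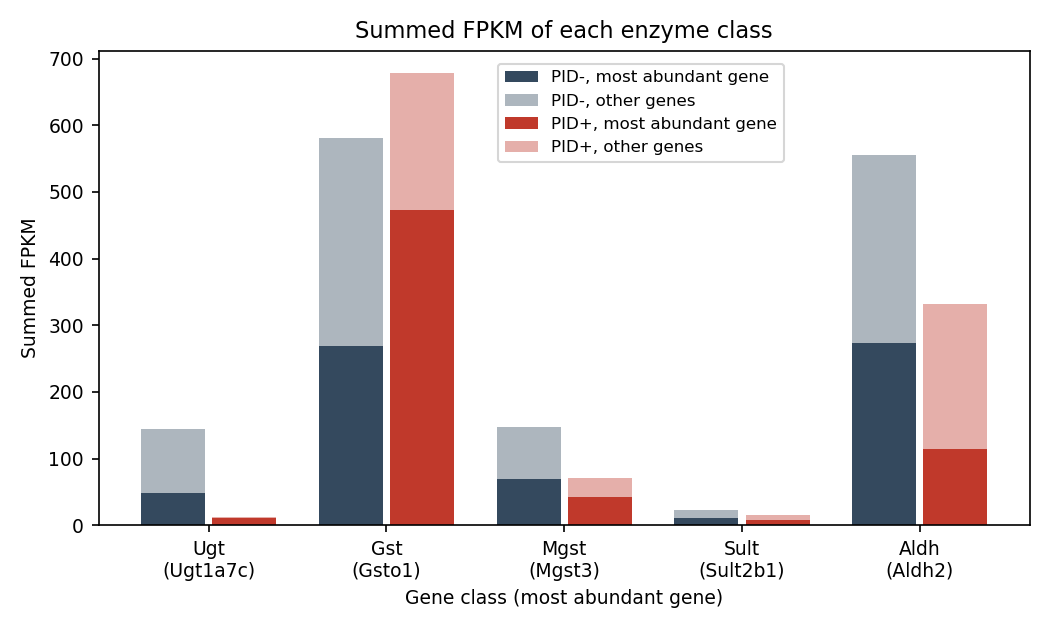
Summed FPKM of each enzyme class in PID- (dark) and PID+ (red), with the gene of the class that had the highest mean in full color and all other genes in pale color. The Ugt bars stand at 144.7 and 12.8 FPKM, and Gst is the class with the higher bar in PID+, carried by Gsto1.

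Of the 12 family members outside Aldh1a and Aldh3, 8 were lower and 4 higher in PID+, and none passed 3-fold. At equal Gapdh Aldh2 (-1.86) and Aldh6a1 (-1.71) passed, as did Aldh1l2 with a pseudocount of 0.1 (-1.74). Aldh2, the mitochondrial enzyme of acetaldehyde removal, was the most abundant of the 85 genes in PID-, with 273 FPKM [75.2 to 472] against 115 FPKM in PID+ [32.5 to 197], a log2 change of -1.25. Aldh18a1, the enzyme that starts proline synthesis from glutamate, had 83.7 FPKM in PID- [25.7 to 142] and 42.9 FPKM in PID+ [11.8 to 74.0]. Aldh6a1, of valine breakdown, had 11.6 FPKM in PID- and 4.42 FPKM in PID+, and Aldh1l2, the mitochondrial folate enzyme, had 2.31 FPKM in PID- and 0.619 FPKM in PID+. Little separated the conditions for Aldh9a1 (24.3 and 23.4 FPKM in PID- and PID+), Aldh16a1 (13.8 and 11.5 FPKM), Aldh4a1 (6.23 and 5.95 FPKM) or Aldh5a1 (2.64 and 2.89 FPKM, with the order turned at equal Gapdh, -0.34). Aldh7a1, of lysine breakdown, had 17.7 FPKM in PID- and 24.1 FPKM in PID+, an order that turned at equal Gapdh (-0.17). Aldh1l1 (3.69 and 6.22 FPKM in PID- and PID+) and Aldh1b1 (0.7999 and 1.73 FPKM) were higher in PID+, and Aldh8a1 was under 1 FPKM.

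Retinal dehydrogenases, the Aldh1a genes, were higher in PID+ by their sum, with 25.6 FPKM in PID- and 46.6 FPKM in PID+. Aldh1a2 made up most of it, with 22.3 FPKM in PID- [7.73 to 36.8] and 41.8 FPKM in PID+ [17.1 to 66.4], a log2 change of 0.88 that was 0.27 at equal Gapdh. Aldh1a1, often used as a stem cell marker, had 1.04 FPKM in PID- and 1.71 FPKM in PID+, and Aldh1a3 had 2.05 FPKM in PID- and 2.97 FPKM in PID+. The direction of Aldh1a3 turned at equal Gapdh (-0.06), and Aldh1a7 was under 1 FPKM.

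The depth behind these values differed. Low values of genes with a single transcript fell on steps, and 91.2% of 678 such values in PID+ and 91.0% of 656 in PID- lay within 0.1 of a whole number of fragments, where 20% would without steps. The FPKM that 1 fragment added was 1.38 times larger in PID+, so that the same FPKM rests on fewer fragments in PID+. By this estimate, made on the longest transcript and therefore approximate, 25 of the 85 genes, including those listed at 0, had at most 3 fragments in PID+ and 26 in PID- after rounding to whole fragments. All 8 called genes were above this in both conditions. The lower bound of the interval was 0 for 72 of the 85 genes in PID+ and for 65 in PID-.

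Upstream sequence is shown for some of the called genes because receptors and factors with known binding letters regulate many enzymes of these classes. RefSeq (GRCm38.p6) gave a window for 72 of the 85 genes, and the 250 bases before the start were searched on both strands for letters known from regulators of these enzymes. The aryl hydrocarbon receptor core GCGTG was found in 28.1% of 32817 windows of all genes and in 20.9% of the 86 windows of members. The antioxidant response core TGACNNNGC was found in 10.2% and 6.98%, and the HNF1 core GTTAAT in 6.44% and 16.3%. Ugt1a6a held the reverse complement of the HNF1 core, ATTAAC, at -50 to -45 from its start. Ugt1a7c, Ugt2b34, Gstk1 and Gstt3 held none of the 3 motifs in these windows. Aldh3a1 had no window. Those of Mgst1 and Aldh3b1, counted in these shares, are not shown because they reach into the genes as Gencode annotates them. A window of Mgst1 held the reverse complement of the antioxidant response core, GCACGGTCA, at -56 to -48 from the RefSeq start. That of Aldh3b1 held none of the 3 motifs. Capitals mark the HNF1 core. The window of Ugt1a6a lies at chr1:88134559-88134808 (plus strand), that of Ugt1a7c at chr1:88094751-88095000 (plus strand), that of Ugt2b34 at chr5:86906938-86907187 (minus strand) and that of Gstk1 at chr6:42245685-42245934 (plus strand), each ending at the base before the RefSeq start. For Ugt1a7c this start lies upstream of the Gencode start, chr1:88095062.
Ugt1a6a: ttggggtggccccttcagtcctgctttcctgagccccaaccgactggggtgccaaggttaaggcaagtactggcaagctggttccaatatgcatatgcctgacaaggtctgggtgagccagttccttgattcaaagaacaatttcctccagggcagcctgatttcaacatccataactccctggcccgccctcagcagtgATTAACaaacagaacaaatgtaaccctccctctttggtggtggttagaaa
Ugt1a7c: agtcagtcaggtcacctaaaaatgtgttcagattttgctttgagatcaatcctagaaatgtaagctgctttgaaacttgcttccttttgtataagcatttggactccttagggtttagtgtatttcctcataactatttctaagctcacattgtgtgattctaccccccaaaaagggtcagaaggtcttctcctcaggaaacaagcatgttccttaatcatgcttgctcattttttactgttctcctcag
Ugt2b34: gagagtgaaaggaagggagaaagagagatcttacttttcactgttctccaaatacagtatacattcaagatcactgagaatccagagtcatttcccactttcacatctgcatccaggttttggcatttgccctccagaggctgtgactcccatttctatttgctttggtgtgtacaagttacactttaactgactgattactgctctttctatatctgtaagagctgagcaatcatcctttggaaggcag
Gstk1: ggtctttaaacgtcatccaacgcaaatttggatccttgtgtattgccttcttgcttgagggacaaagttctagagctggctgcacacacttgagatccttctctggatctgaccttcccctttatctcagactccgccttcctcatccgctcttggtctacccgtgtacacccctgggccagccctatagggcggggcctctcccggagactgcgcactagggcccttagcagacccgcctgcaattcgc

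Markers of cell types were read beside these genes. For comparison, 1.72% of all genes were past 3-fold lower in PID+ and 1.04% higher. All 9 epithelial markers were higher in PID+, 3 of them past 3-fold, and summed to 5141 FPKM in PID- and 9496 FPKM in PID+. Krt19 was the highest by the mean of both conditions, though Krt18 and Krt8 were above it in PID+. The epithelial markers were not followed through the alternatives. Gapdh was 1.54-fold higher in PID+ and Krt19 1.19-fold, so the order of Krt19 would turn at equal Gapdh. Epcam (3.22-fold), Cldn7 (3.45-fold) and Elf3 (3.93-fold), the 3 past 3-fold, would drop below it there. Of 10 mesenchymal or fibroblast markers, 5 were past 3-fold lower in PID+ (Vim, Col1a1, Col1a2, Col3a1 and Dcn), and the sum was 1041 FPKM in PID- and 26.5 FPKM in PID+, most of it Vim, with Lum at 0 in both. Of 12 intestinal markers, 7 of which reached 1 FPKM in a condition, 4 were lower and 6 higher in PID+ (median log2 change 0.003). Cdx2, Cdh17 and Car1 were past 3-fold lower and 0 past 3-fold higher. Krt20, higher in PID+, was the most abundant, and Cdx1 and Fabp1 were listed at 0 in both conditions. The sum was 119 FPKM in PID- and 166 FPKM in PID+, an order that turned without Krt20 (45.2 and 7.76 FPKM). The part of these differences between the lines in the levels of the conjugating enzymes was not tested. Hepatocyte markers, of a cell type rich in these enzymes, were near 0: none of the 8 reached 1 FPKM, Ttr, Serpina1a and Fgb were at 0, and they summed to 0.468 FPKM in PID- and 0.0751 FPKM in PID+, with Apob the most abundant. The 5 endothelial markers summed to 1.12 FPKM in PID- and 3.77 FPKM in PID+ (mostly Kdr). The 7 leukocyte markers summed to 17.1 FPKM in PID- and 22.1 FPKM in PID+ (mostly Cd68, and 0.312 and 0.290 FPKM without it), with Cd3e at 0.

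Regulators known to control these enzymes included some of the larger differences around them. Of 23 genes listed, 3 were at least 3-fold lower and 0 higher in PID+, and their median log2 change was -0.27. By the same rule 1.72% of all genes were lower and 1.04% higher, with a median of 0. Ahr, the receptor for dioxins and dietary indoles that drives Ugt1a6 and Aldh3a1 genes, had 75.0 FPKM in PID- [31.3 to 119] and 9.03 FPKM in PID+ [2.16 to 15.9], a log2 change of -2.92 with intervals apart. Nr1h4, the bile acid receptor, had 5.83 FPKM in PID- [0 to 11.8] and 0.160 FPKM in PID+ [0 to 0.398]. Cdx2, an intestinal transcription factor, had 8.04 FPKM in PID- [1.07 to 15.01] and 0.542 FPKM in PID+ [0 to 1.64]. The CDX2 promoter also drives Cre in both groups. Nfe2l2, the master regulator of antioxidant response genes, had 149 FPKM in PID- and 105 FPKM in PID+, and its partner Mafg had 50.3 and 37.9 FPKM. Nr1i2, the pregnane X receptor, was listed at 0 in both conditions. Whether the levels of these regulators bear on those of the enzymes was not tested.

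Genes that supply the cofactors were measured too. Of 14 genes, 1 was at least 3-fold lower (1.72% of all genes) and 0 higher (1.04%), with a median log2 change of -0.33. This was Slc7a11, the cystine carrier that feeds glutathione synthesis, with 53.9 FPKM in PID- [13.5 to 94.3] and 11.5 FPKM in PID+ [2.17 to 20.8]. Gclc, the rate-limiting enzyme of glutathione synthesis, had 138 FPKM in PID- and 88.8 FPKM in PID+, Gsr, which recycles glutathione, had 80.2 and 94.6 FPKM (an order that turned at equal Gapdh, -0.38), and Ugdh, which makes UDP-glucuronic acid, had 96.1 and 62.9 FPKM.

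In phase I of the pathway, 1 of 20 cytochrome P450 genes and their partners was at least 3-fold lower and 0 were higher. Over all genes these shares were 1.72% and 1.04%, and both medians were 0. Cyp2j6, an enzyme of fatty acid epoxidation, had 8.80 FPKM in PID- [2.41 to 15.2] and 1.86 FPKM in PID+ [0 to 3.95], a log2 change of -1.78 that no longer passed 3-fold with chromosome medians subtracted (-1.47). Por, the reductase that all microsomal P450 enzymes need, had 191 FPKM in PID- and 484 FPKM in PID+, Cyb5r3 had 187 and 92.4 FPKM (past 3-fold at equal Gapdh, -1.63), and Cyp1b1 had 58.1 and 36.9 FPKM. None of 26 other carbonyl and quinone enzymes passed 3-fold (median -0.12), though Ephx1 (-1.50) did with equal total FPKM (-1.60) and equal Gapdh (-2.11). Their most abundant genes were Akr1a1, with 303 FPKM in PID- and 179 FPKM in PID+, the epoxide hydrolase Ephx1, with 146 and 51.0 FPKM, and the aldose reductase Akr1b3, with 51.8 and 90.0 FPKM.

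For export, 1 of 13 conjugate and drug transporters was at least 3-fold higher and 0 were lower, with a median of 0.18. Over all genes 1.04% were higher and 1.72% lower, with a median of 0. Slco4a1, an organic anion carrier, had 1.07 FPKM in PID- [0 to 2.56] and 6.57 FPKM in PID+ [0 to 13.2], a log2 change of 1.87 that dropped below 3-fold at equal Gapdh (1.35). Abcc1, which exports glutathione conjugates, had 56.0 FPKM in PID- and 40.4 FPKM in PID+ (an order that turned with chromosome medians subtracted, 0.04), the drug pump Abcb1b had 22.9 and 57.2 FPKM, and Abcc4 had 13.6 and 21.5 FPKM. Of 7 genes of deconjugation, 1 was at least 3-fold lower and 0 higher (median 0.33): Ggh, which trims folate glutamates, had 30.9 FPKM in PID- [11.4 to 50.4] and 9.47 FPKM in PID+ [1.28 to 17.7], a log2 change of -1.61 that no longer passed with chromosome medians subtracted (-1.29). The glucuronidase Gusb had 59.6 FPKM in PID- and 57.9 FPKM in PID+, and the sulfatase Arsb had 13.0 and 18.1 FPKM, an order that turned at equal Gapdh (-0.14).

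Beside the retinal dehydrogenases, 2 of 18 other retinoid genes passed 3-fold with lower values in PID+ and 0 with higher ones, with a median of 0.11. Rbp2, the retinol carrier of enterocytes, had 26.3 FPKM in PID- [0.658 to 51.9] and 0.293 FPKM in PID+ [0 to 0.801]. Dhrs3, which turns retinal back into retinol, had 79.2 FPKM in PID- [26.1 to 132] and 13.7 FPKM in PID+ [0 to 28.1]. Stra6, the retinol uptake receptor, had 379 FPKM in PID- and 268 FPKM in PID+, and Rdh10, which makes retinal, had 59.9 and 129 FPKM. Among all genes 1.72% were called lower and 1.04% higher by the same rule, with a median of 0.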

How the data were processed

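Per the methods and labels, adapters were removed with CutAdapt and reads were aligned with TopHat and Bowtie2 to GRCm38.p3 with an annotation of protein-coding genes. The authors pooled the 3 libraries of each condition into 1 alignment and deposited the FPKM that CuffDiff gave per gene, with its interval bounds. CuffDiff was run with normalization to hits compatible with the annotation, and the sources used here do not give the read depth. The intervals cover its error model only, and with pooled libraries there is no replicate error. The table holds 21966 genes in 2 conditions, and 7 genes with a status other than OK were left out, none of them a member. Symbols matched 21734 identifiers. Positions, exons and transcripts came from Gencode M21 (GRCm38), and windows of 50 bases were compared between protein-coding transcripts.

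Log2 changes used a pseudocount of 1 and calls a threshold of 3-fold. No test was run, because a condition has 1 pooled value. Fragments were estimated from FPKM times transcript length less 185 bases, using values of up to 6 fragments from genes with 1 transcript of over 600 bases. Members past 3-fold and the 3 most abundant members of each class were named in full, except that only 2 sulfotransferases reached 1 FPKM. Of each list, genes past 3-fold and the 3 most abundant were named in full. Other members reaching 1 FPKM were named with their values. Individual markers and neighboring genes were picked for mention with their values known. Members and lists were chosen with earlier results of these data known. The alternatives tried were equal total FPKM, upper quartile or Gapdh, a pseudocount of 0.1, chromosome medians subtracted, minimum mean FPKM of 1 or 5, 2-fold calls, and class sums without their top gene. Python 3.11.15, numpy 2.4.6, pandas 2.3.3 and matplotlib 3.10.9 were used.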

Additional observations from a re-analysis of the deposited data

How the results depend on the processing

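The 8 genes past 3-fold all kept their call and direction with a pseudocount of 0.1, with equal total FPKM, with equal upper quartiles and with chromosome medians subtracted, and 7 of 8 kept it at equal Gapdh, where Gstt3 did not. Of the 85 genes, those that passed only under an alternative were Gstm1 (all of these but equal upper quartiles), Aldh2, Aldh6a1 and Gstp2 (equal Gapdh), and Aldh1l2, Gstt1, Sult3a2, Sult4a1, Ugt1a6b and Ugt2b35 (pseudocount of 0.1). Of the named genes of the lists, Ephx1 (equal total FPKM and equal Gapdh) and Cyb5r3 (equal Gapdh) did so too. The number of genes at least 3-fold lower, 6 as reported, was 12 with a pseudocount of 0.1 (795 of all genes), 10 at equal Gapdh (662), 12 at 2-fold (828) and 3 with intervals apart (119). The number at least 3-fold higher, 2 as reported, was 1 at equal Gapdh (76 of all genes), 0 among genes whose mean FPKM reached 5 (144), 4 at 2-fold (726) and 0 with intervals apart (41). The median log2 change was -0.12 with chromosome medians subtracted (-0.01 for all genes), -0.58 over the 39 genes whose mean FPKM reached 1 (-0.01 over all 11480 such genes) and -0.76 over the 28 whose mean reached 5 (-0.00121 over all 9341), which were fewer genes. Gapdh itself was 1666 FPKM in PID- and 2570 FPKM in PID+, and setting it equal moved the median of genes whose mean FPKM reached 5 by -0.58, so that changes on that scale are to be read against this shift. At equal Gapdh the log2 ratio of class sums was -1.37 for Aldh, -0.40 for Gst, -1.67 for Mgst, -1.16 for Sult and -4.12 for Ugt (scaling of sums was added after seeing the data), against -0.75, 0.22, -1.04, -0.54 and -3.49 as reported. Without the gene of highest mean it was -0.60 for Gst (Gsto1) and -5.62 for Ugt (Ugt1a7c). Where these values moved, the cause was not tested, beyond the shift and the smaller numbers of genes given. Of the 45 genes followed through each alternative, which are those past 3-fold and the most abundant of each class and list, 2 changed sign at equal Gapdh (Gsr and Arsb) and 1 with chromosome medians subtracted (Abcc1). Of the other members reaching 1 FPKM, Aldh1a3, Aldh5a1 and Aldh7a1 changed sign at equal Gapdh, Gstm5 with equal upper quartiles and Aldh4a1 with chromosome medians subtracted. Of the 17 genes past 3-fold among the 45, 2 were lost at equal Gapdh (Gstt3 and Slco4a1) and 2 with chromosome medians subtracted (Cyp2j6 and Ggh). Markers of cell types were not followed, except Cdx2, which is also among the regulators. No paired analysis was possible because the deposited values are pooled over the samples of a condition, and for the same reason no sample could be left out. Where mean FPKM reached 10, the median distance from FPKM to the upper bound was 75.1% of the FPKM in PID+ and 73.9% in PID-, which limits what differences these data can show.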
